A study of Homo sapiens with 12 samples.

Results

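The guidance-cue module comprises the ephrins and their Eph receptors, the semaphorins with their plexin and neuropilin receptors, the slits with their Robo receptors, and the netrins with their UNC5 receptors. Its members were chosen by symbol alone, as every gene of the deposited table whose symbol belongs to 1 of these 12 families. No measured value entered that rule, but the families were chosen with earlier results of these data known. That gave 68 of the 35940 symbols in the table. Of these, 67 had enough counts to be tested, and ROBO4 did not.

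Bulk RNA was sequenced in 12 libraries. The cells were ESI017, a line of human embryonic stem cells with a SOX2::mCitrine reporter, grown for 3 days as micropatterned colonies in N2B27 medium. Treated colonies received 200 ng/ml FGF8 together with WNT3A at 100, 300 or 1000 ng/ml and were sorted by the reporter. The groups are thus SOX2-negative cells at 100 ng/ml (2 libraries), 300 ng/ml (1 library) and 1000 ng/ml (2 libraries), SOX2-positive cells at the same doses (2, 1 and 2 libraries), and control colonies in N2B27 without FGF8 or WNT3A (2 libraries), for which the labels give no gate. Every library comes from that 1 line, the second set of libraries is described as a repeat without the 300 ng/ml dose, and p-values here measure the spread between these repeats. Because each treated group also received FGF8, a difference from control belongs to both factors and the sort together, and these cannot be told apart.

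Library totals ran from 16474799 to 28078923 estimated counts. Levels are given in CPM, the count relative to the library total after scaling by the trimmed mean of M values, with replicate 1 before replicate 2. SOX2 chose the cells of the treated groups and is no finding. The 8 definitive endoderm markers summed to 947 to 1595 CPM in SOX2-negative cells, against 11.3 to 32.5 CPM in SOX2-positive cells and 33.9 to 38.4 CPM in control colonies. Of the control sum, PRDM1 made up 30.0 and 30.4 CPM, against 1.49 to 2.13 CPM in SOX2-positive cells, where CXCR4 was also lower. SOX17 stood at 1.78 to 8.46 CPM in SOX2-positive cells, against 0 CPM in both control libraries. FOXA1, FOXA2, GATA4 and GATA6 were also above control there, and CER1 overlapped it. The 8 mesoderm markers summed to 177 to 577 CPM in SOX2-negative cells, against 10.4 to 57.5 CPM in SOX2-positive cells and 22.1 to 30.7 CPM in control colonies. The 8 pluripotency markers, SOX2 among them, summed to 2331 to 3467 CPM in SOX2-negative cells, against 6050.0 to 6811 CPM in SOX2-positive cells and 6379 to 6458 CPM in control colonies. Between SOX2-positive cells and control colonies its members moved oppositely. LIN28A stood at 1689 to 1830 CPM, against 3365 and 3619 CPM in control colonies, and SOX2 and PRDM14 were also lower. POU5F1 stood at 989 to 1928 CPM, against 503 and 430 CPM, and TDGF1 at 348 to 411 CPM, against 21.3 and 14.4 CPM. NANOG and DPPA4 were higher as well, and DNMT3B overlapped control. The 8 neural markers summed to 355 to 433 CPM in SOX2-negative cells and 388 to 429 CPM in SOX2-positive cells, against 1035 to 1243 CPM in control colonies. NES made up 294 to 351 CPM of that sum in SOX2-negative and 258 to 351 CPM in SOX2-positive cells, and 3 of the 7 neural markers tested were lower and 0 higher in SOX2-negative cells (edgeR). The 6 neural crest markers summed to 51.1 to 88.8 CPM in SOX2-negative cells and 151 to 184 CPM in SOX2-positive cells, against 209 to 279 CPM in control colonies. Members of that sum moved oppositely. In SOX2-positive cells FOXD3 stood at 27.9 to 39.9 CPM, against 0.864 and 0.329 CPM in control colonies, and TFAP2A at 7.09 to 42.1 CPM, against 211 and 155 CPM. Between the gates, 1 of the 6 was higher and 3 were lower in SOX2-negative cells (edgeR). The 6 neuron markers summed to 161 to 374 CPM in SOX2-negative cells and 131 to 198 CPM in SOX2-positive cells, against 292 to 361 CPM in control colonies. TUBB3 made up 104 to 322 CPM of that sum in SOX2-negative cells. STMN2 stood at 48.0 to 69.3 CPM there, against 2.06 to 7.10 CPM in SOX2-positive cells and 3.71 and 6.44 CPM in control colonies. Between the gates, 1 of the 6 was higher and 2 were lower in SOX2-negative cells (edgeR). These ranges cover the replicated doses of 100 and 1000 ng/ml, and the part that these cell identities have in the guidance results was not tested. SOX2-negative replicate 2 at 100 ng/ml stood apart from the other SOX2-negative libraries on the second principal component, at -48.0 against -0.28 to 12.9, and counts are therefore also given without it.

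Guidance cues were named for steering axons, but the same proteins set boundaries and move cells in the early embryo. Ephrins stay bound to the cell surface and bind Eph receptor tyrosine kinases on a neighbouring cell, so that both cells can receive a signal, and cells with unequal Eph and ephrin levels tend to sort apart. Class 3 semaphorins are secreted and mostly act through a neuropilin and a plexin, while the other vertebrate classes are anchored in the membrane and bind plexins. Slits repel cells that carry Robo receptors, and netrins attract through DCC or neogenin and repel through UNC5 receptors.

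The promoters of 6 members are shown, chosen in each direction after their values were seen, among members that averaged 20 CPM or more in the higher gate and that the table holds. Among those members, PLXNA2, SEMA3G, EPHB3 and NTN4 had the 4 largest differences on the higher side in SOX2-negative cells, and UNC5A and EFNB2 the 2 largest on the lower side. NRP1, whose difference exceeded those of SEMA3G, EPHB3 and NTN4, was not in that set. Each line gives the 250 bases upstream of the start in RefSeq's GRCh38.p14 table, 5′ to 3′ on the strand of the gene, with any TCF/LEF match in capitals.
PLXNA2, chr1:208244385-208244634, minus strand: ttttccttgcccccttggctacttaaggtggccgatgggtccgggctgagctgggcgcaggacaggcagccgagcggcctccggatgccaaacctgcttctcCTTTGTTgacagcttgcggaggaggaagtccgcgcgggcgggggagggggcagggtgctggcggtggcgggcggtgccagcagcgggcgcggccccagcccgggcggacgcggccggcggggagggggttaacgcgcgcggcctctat
SEMA3G, chr3:52445104-52445353, minus strand: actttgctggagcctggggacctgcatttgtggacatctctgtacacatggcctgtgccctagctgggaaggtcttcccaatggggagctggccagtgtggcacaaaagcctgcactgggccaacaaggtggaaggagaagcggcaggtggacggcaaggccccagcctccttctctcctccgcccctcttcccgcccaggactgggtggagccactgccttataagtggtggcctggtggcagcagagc
EPHB3, chr3:184561535-184561784, plus strand: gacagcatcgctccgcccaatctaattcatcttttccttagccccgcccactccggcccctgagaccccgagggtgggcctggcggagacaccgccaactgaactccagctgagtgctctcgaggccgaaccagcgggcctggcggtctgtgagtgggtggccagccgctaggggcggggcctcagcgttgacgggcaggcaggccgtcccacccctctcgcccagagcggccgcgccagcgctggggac
NTN4, chr12:95791156-95791405, minus strand: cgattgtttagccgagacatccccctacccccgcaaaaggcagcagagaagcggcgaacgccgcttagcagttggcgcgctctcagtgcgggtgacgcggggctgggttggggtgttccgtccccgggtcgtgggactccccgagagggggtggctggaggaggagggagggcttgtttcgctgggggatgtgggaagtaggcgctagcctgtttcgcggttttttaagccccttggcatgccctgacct
UNC5A, chr5:176810309-176810558, plus strand: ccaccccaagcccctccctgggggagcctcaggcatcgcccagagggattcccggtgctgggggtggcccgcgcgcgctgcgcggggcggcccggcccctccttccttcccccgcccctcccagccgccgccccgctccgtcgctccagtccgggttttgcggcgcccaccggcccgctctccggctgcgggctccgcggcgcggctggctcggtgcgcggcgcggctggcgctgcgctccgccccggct
EFNB2, chr13:106535663-106535912, minus strand: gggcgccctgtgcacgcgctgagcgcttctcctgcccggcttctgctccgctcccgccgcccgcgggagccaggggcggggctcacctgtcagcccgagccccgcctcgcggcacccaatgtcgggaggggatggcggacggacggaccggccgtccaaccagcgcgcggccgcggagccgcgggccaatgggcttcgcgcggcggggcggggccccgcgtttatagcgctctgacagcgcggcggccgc
For the TCF/LEF factors that act downstream of WNT, the letters searched were CTTTG followed by AA, AT, TA or TT. For GATA factors they were AGATAA. Both strands were searched. A TCF/LEF match stood in 12.1% of the 27305 promoters of the table and in 4 of the 58 members that the table holds (6.90%), and a GATA match stood in 9.37% of all promoters and in 5 of the 58 members (8.62%). Among members higher in SOX2-negative cells, 2 of 25 held a TCF/LEF match and 1 of 25 a GATA match, and among members lower there, 0 of 7 held either. Of the 6 promoters shown, that of PLXNA2 held the 1 match, and these letters are not in the other 5 windows.

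The first comparison asks how the guidance repertoire differs between the reporter gates, over the mean of the 100 and 1000 ng/ml doses. Of the 67 members tested, 27 were higher and 12 lower in SOX2-negative than in SOX2-positive cells at an adjusted p under 0.05 (edgeR quasi-likelihood test, Benjamini-Hochberg adjustment over all 17047 genes tested). Across all genes tested, 12.9% were higher and 11.1% lower, or 24.0% in either direction. The median log2 fold change was 0.47 over the members and 0.01 over all genes tested. Without SOX2-negative replicate 2 at 100 ng/ml, 27 members were higher and 15 lower. In CPM, the 4 SOX2-negative libraries at the replicated doses all lay above the 4 SOX2-positive ones for 26 of the 68 members and all below for 12, and the gates overlapped for 30. Over all genes tested, 13.5% lay all above and 13.1% all below. By role, 16 of the 35 ligands tested were higher and 4 lower, while 11 of the 32 receptors were higher and 8 lower. In bulk libraries, fewer cells of a type and less RNA per cell cannot be told apart.

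**Figure D1:**
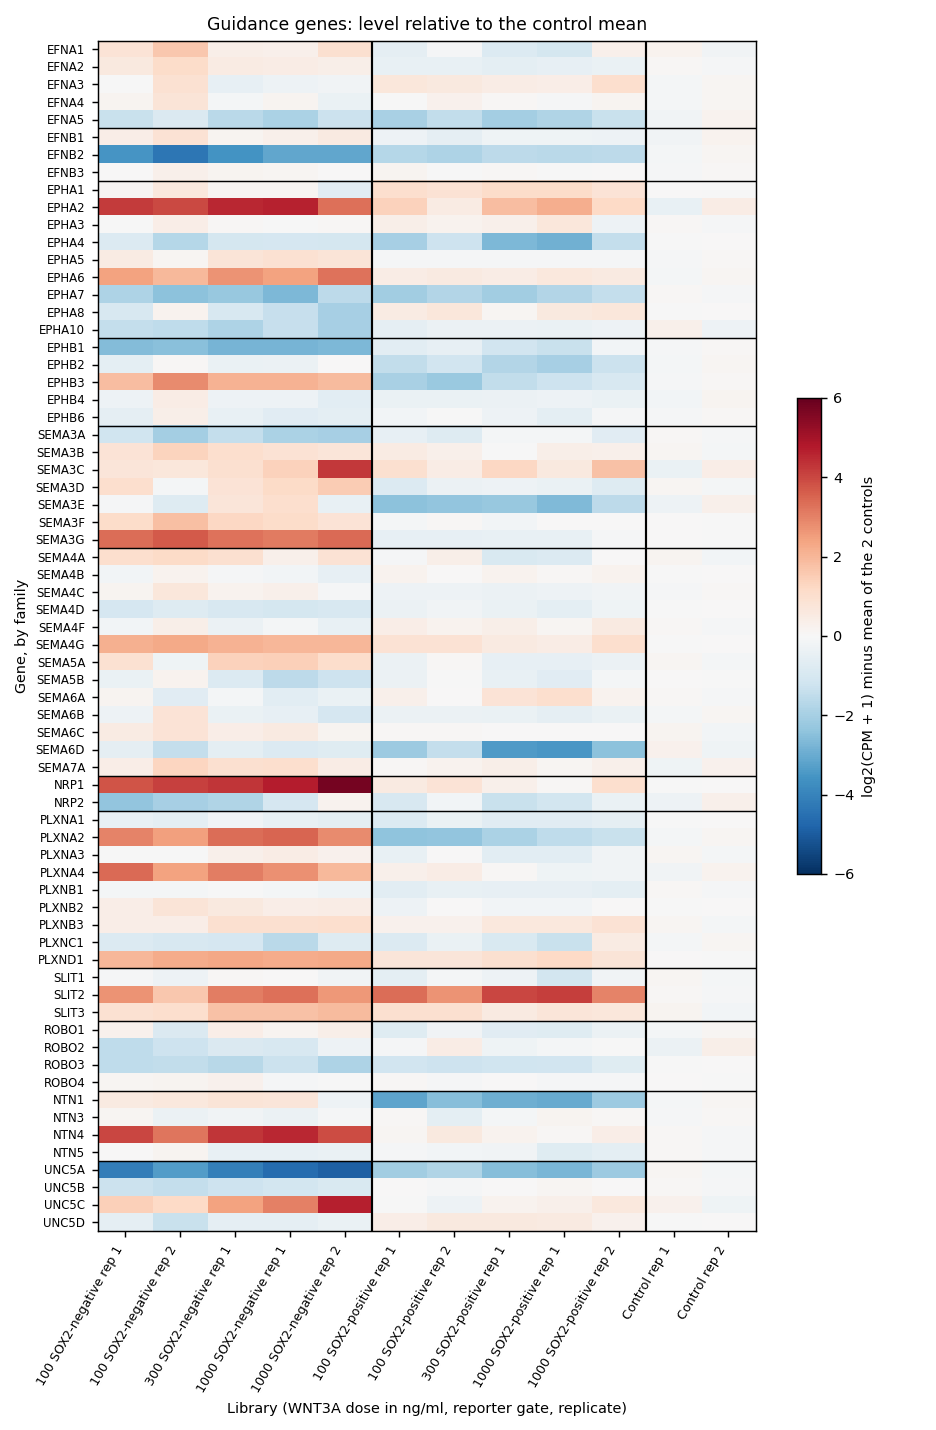
Heat map of the members (rows, grouped by family) in each of the 12 libraries (columns, SOX2-negative first, then SOX2-positive, then control), coloured by log2(CPM + 1) minus the mean of the 2 control libraries. NRP1, NTN4, EPHA2 and SEMA3G are above control in all 5 SOX2-negative libraries, and UNC5A, EFNB2 and EPHA7 are below control in all 10 treated libraries.

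**Figure D2:**
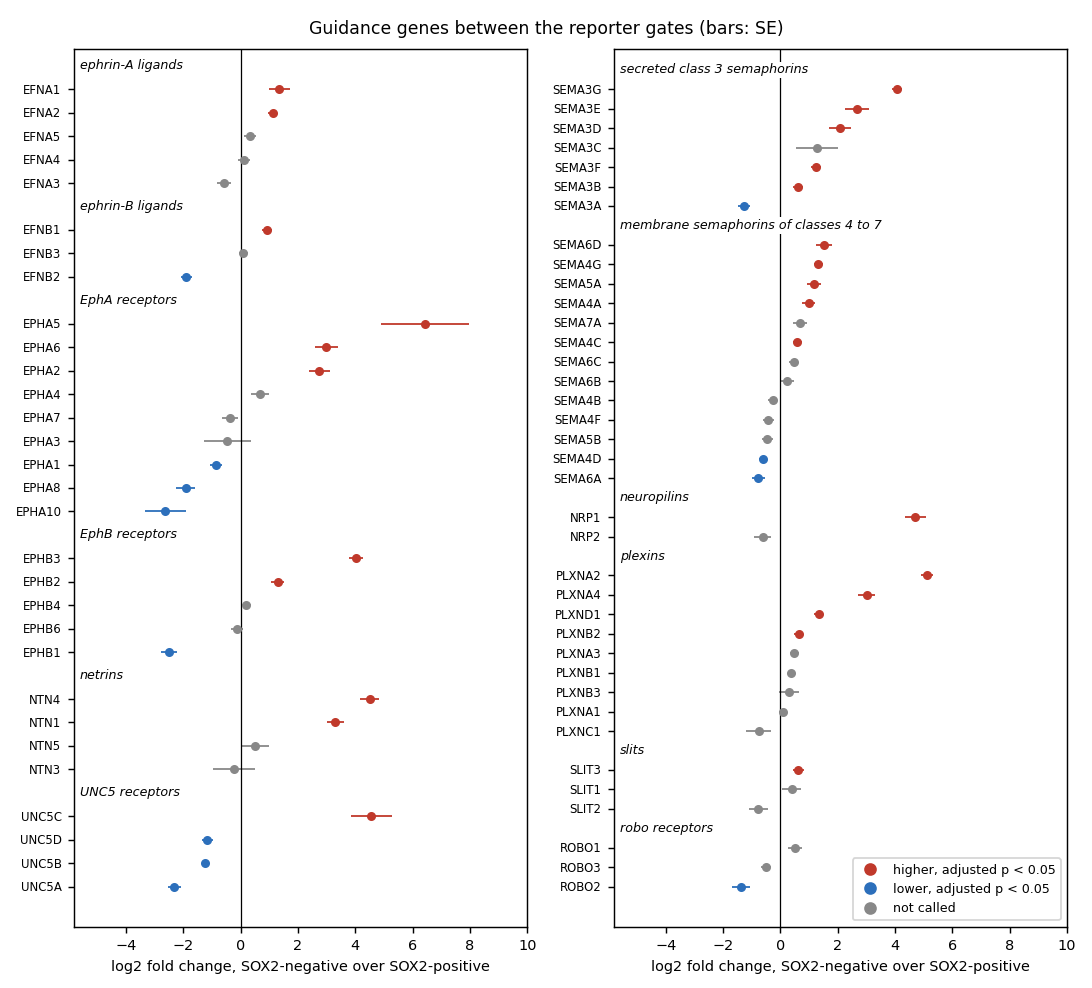
Log2 fold change of each tested member, SOX2-negative over SOX2-positive (horizontal axis), by family. Points are fitted values and bars 1 SE, with members called higher in red, called lower in blue and not called in grey; apart from EPHA5, whose 6.44 is a fitted value over SOX2-positive libraries with 0 counts, the called members run from PLXNA2 at 5.11 to EPHA10 at -2.63.

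Among the ephrin ligands, 3 of the 8 tested were higher in SOX2-negative cells (EFNA1, EFNA2 and EFNB1), 1 was lower (EFNB2), and EFNA3, EFNA4, EFNA5 and EFNB3 did not pass the test. EFNB2 (ENSG00000125266, chromosome 13, 106489731 to 106535662) encodes a transmembrane ephrin that binds EphB receptors, EPHB4 above all, and also EPHA4. It stood at 11.2 and 5.98 CPM at 100 ng/ml, 10.7 CPM at 300 ng/ml and 14.9 and 15.4 CPM at 1000 ng/ml in SOX2-negative cells. SOX2-positive cells held 41.8 and 37.8 CPM, 46.6 CPM, and 44.3 and 45.5 CPM at the same doses, against 130.4 and 149 CPM in control colonies. All SOX2-negative libraries were thus below all SOX2-positive ones, which in turn were below both controls. Its log2 fold change between the gates was -1.89 ± 0.20 (SE; edgeR adjusted p = 6e-05). EFNB1, another ligand of EphB receptors, stood at 45.1 and 61.8 CPM at 100 ng/ml, 37.3 CPM at 300 ng/ml and 41.4 and 49.6 CPM at 1000 ng/ml in SOX2-negative cells. SOX2-positive cells held 27.3 and 22.9 CPM, 27.7 CPM, and 27.6 and 27.2 CPM at the same doses, against 29.3 and 38.6 CPM in control colonies. The SOX2-negative cells were higher by 0.91 ± 0.17 log2 units (edgeR adjusted p = 0.003). EFNA1, a GPI-anchored ligand of EPHA2, was measured at 13.3 and 24.1 CPM at 100 ng/ml, 9.42 CPM at 300 ng/ml and 9.15 and 15 CPM at 1000 ng/ml in SOX2-negative cells. SOX2-positive cells held 4.66 and 6.68 CPM, 3.66 CPM, and 2.89 and 9.23 CPM at the same doses, against 8.59 and 6.0 CPM in control colonies. Its gates overlap, and the log2 fold change of 1.35 ± 0.36 (edgeR adjusted p = 0.021) missed the threshold without SOX2-negative replicate 2 at 100 or 1000 ng/ml or SOX2-positive replicate 1 at 100 or 1000 ng/ml (adjusted p = 0.051 to 0.079). EFNA2 was higher in SOX2-negative cells by 1.12 ± 0.16 log2 units (edgeR adjusted p = 0.00047), with 38.2 to 64.9 CPM in the 5 SOX2-negative libraries, against 19.2 to 21.8 CPM in the 5 SOX2-positive libraries and 30.7 and 28.2 CPM in control colonies.

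The EphA receptors, which mostly bind the GPI-anchored ephrin-A ligands, divided into 3 higher (EPHA2, EPHA5 and EPHA6), 3 lower (EPHA1, EPHA8 and EPHA10) and 3 that did not pass (EPHA3, EPHA4 and EPHA7). EPHA2 (ENSG00000142627, chromosome 1, 16124337 to 16156087), a receptor of early embryonic and epithelial cells, stood at 237 and 205 CPM at 100 ng/ml, 305 CPM at 300 ng/ml and 324 and 131 CPM at 1000 ng/ml in SOX2-negative cells. SOX2-positive cells held 33.1 and 17.7 CPM, 47.0 CPM, and 59.5 and 29 CPM at the same doses, against 8.64 and 17.1 CPM in control colonies. The SOX2-negative libraries were all above the SOX2-positive ones, whose own values all exceeded both controls. The gate difference was 2.74 ± 0.37 log2 units (edgeR adjusted p = 0.00034). EPHA5 had 48 counts in the 4 SOX2-negative libraries at 100 and 1000 ng/ml and 0 in the 4 SOX2-positive ones, so it was at least 16.1-fold higher in SOX2-negative cells against a floor of 3 counts over the group. EPHA6 stood at 3.63 to 10.5 CPM in the 5 SOX2-negative libraries, against 0.645 to 0.884 CPM in the 5 SOX2-positive libraries and 0.102 and 0.329 CPM in control colonies, with a gate difference of 2.99 ± 0.40 log2 units (edgeR adjusted p = 0.00035). Both are scarce here, since EPHA6 reached at most 10.5 CPM and EPHA5 at most 0.957 CPM in any library. EPHA5 thus lies at a level that these libraries do not resolve. Its call over both doses (edgeR adjusted p = 0.016) missed the threshold at 100 and at 1000 ng/ml alone (edgeR adjusted p = 0.11 and 0.07).

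In the opposite direction, EPHA1 (ENSG00000146904, chromosome 7, 143390289 to 143408892) stood at 43.0 to 109 CPM in the 5 SOX2-negative libraries, against 122 to 150.3 CPM in the 5 SOX2-positive libraries and 71.0 and 68.3 CPM in control colonies, a log2 fold change of -0.86 ± 0.20 in SOX2-negative over SOX2-positive cells (edgeR adjusted p = 0.01). EPHA8 stood at 1.07 to 8.72 CPM in the 5 SOX2-negative libraries, against 7.94 to 12.4 CPM in the 5 SOX2-positive libraries. Control colonies held 7.11 and 7.43 CPM, and the gate difference of EPHA8 was -1.92 ± 0.33 log2 units (edgeR adjusted p = 0.0016). At 100 ng/ml alone EPHA1 and EPHA8 missed the threshold, at -0.52 and -0.92 log2 units (edgeR adjusted p = 0.22 and 0.17). EPHA10, whose kinase domain is inactive, stood at 0 to 0.532 CPM in the 5 SOX2-negative libraries, against 1.78 to 2.22 CPM in the 5 SOX2-positive libraries and 3.96 and 2.23 CPM in control colonies. Its log2 fold change of -2.63 ± 0.72 (edgeR adjusted p = 0.022) missed the threshold without SOX2-positive replicate 2 at 100 or 1000 ng/ml (adjusted p = 0.055 to 0.063). EPHA4, which binds ephrins of both classes, was measured at 79.9 and 43.5 CPM at 100 ng/ml, 67.6 CPM at 300 ng/ml and 69.4 and 67.5 CPM at 1000 ng/ml in SOX2-negative cells. SOX2-positive cells held 35.4 and 60.1 CPM, 21.3 CPM, and 18.3 and 51.5 CPM at the same doses, against 142 and 143 CPM in control colonies. The gates overlap, and the difference of 0.67 ± 0.31 log2 units did not pass (edgeR adjusted p = 0.15), although it did without SOX2-positive replicate 2 at 1000 ng/ml (adjusted p = 0.019). EPHA7 stood at 6.22 to 15 CPM in the 5 SOX2-negative libraries, against 10.1 to 16.8 CPM in the 5 SOX2-positive libraries and 49.3 and 43.4 CPM in control colonies, and its gate difference of -0.36 ± 0.28 log2 units did not pass (edgeR adjusted p = 0.39).

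Of the EphB receptors, which bind the transmembrane ephrins, EPHB2 and EPHB3 were higher in SOX2-negative cells, EPHB1 was lower, and EPHB4 and EPHB6 did not pass. EPHB3 (ENSG00000182580, chromosome 3, 184561784 to 184582409), a WNT target in the intestinal crypt, stood at 74.4 and 149 CPM at 100 ng/ml, 85.8 CPM at 300 ng/ml and 86.4 and 76.2 CPM at 1000 ng/ml in SOX2-negative cells. SOX2-positive cells held 4.31 and 3.38 CPM, 6.46 CPM, and 7.78 and 9.59 CPM at the same doses, against 19.0 and 20.4 CPM in control colonies. Control colonies lay between the gates, above every SOX2-positive library and below every SOX2-negative one, and the gate difference was 4.04 ± 0.24 log2 units (edgeR adjusted p = 1.9e-06). EPHB1 (ENSG00000154928, chromosome 3, 134597801 to 135260467) ran the other way at 2.39 and 2.56 CPM at 100 ng/ml, 1.98 CPM at 300 ng/ml and 1.91 and 2.10 CPM at 1000 ng/ml in SOX2-negative cells. SOX2-positive cells held 12.3 and 13.4 CPM, 8.32 CPM, and 7.19 and 17.0 CPM at the same doses, against 18.4 and 20.3 CPM in control colonies. Here the SOX2-negative libraries formed a narrow low group, with a log2 fold change of -2.48 ± 0.28 (edgeR adjusted p = 0.0001). EPHB2 stood at 77.7 and 123 CPM at 100 ng/ml, 86.7 CPM at 300 ng/ml and 91.7 and 119 CPM at 1000 ng/ml in SOX2-negative cells. SOX2-positive cells held 40.5 and 51.9 CPM, 33.2 CPM, and 28.8 and 47.4 CPM at the same doses, against 105 and 127 CPM in control colonies. The gate difference was 1.29 ± 0.22 log2 units (edgeR adjusted p = 0.0015). EPHB4, the chief receptor of EFNB2, was measured at 195 and 328 CPM at 100 ng/ml, 195 CPM at 300 ng/ml and 198 and 155 CPM at 1000 ng/ml in SOX2-negative cells. SOX2-positive cells held 185 and 186 CPM, 189 CPM, and 198 and 185 CPM at the same doses, against 218 and 269.6 CPM in control colonies. The gates overlap there, and the difference of 0.19 ± 0.18 log2 units did not pass (edgeR adjusted p = 0.49). Its sign turned with the libraries used, to -0.12 at 1000 ng/ml alone and to -0.027 without SOX2-negative replicate 2 at 100 ng/ml.

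Of the 7 secreted class 3 semaphorins, 5 were higher in SOX2-negative cells (SEMA3B, SEMA3D, SEMA3E, SEMA3F and SEMA3G), SEMA3A was lower and SEMA3C did not pass. Their median log2 fold change was 1.26. SEMA3G (ENSG00000010319, chromosome 3, 52433053 to 52445085), which binds NRP2, stood at 64.3 and 82.8 CPM at 100 ng/ml, 60.8 CPM at 300 ng/ml and 54.8 and 68.6 CPM at 1000 ng/ml in SOX2-negative cells. SOX2-positive cells held 3.62 and 3.59 CPM, 3.71 CPM, and 3.83 and 5.11 CPM at the same doses, against 5.54 and 5.45 CPM in control colonies. The SOX2-positive libraries were close to control while the SOX2-negative ones were all far above both, a gate difference of 4.06 ± 0.19 log2 units (edgeR adjusted p = 5.4e-07). SEMA3E (ENSG00000170381, chromosome 7, 83363238 to 83649113), which binds PLXND1 without a neuropilin, stood at 12.5 and 7.48 CPM at 100 ng/ml, 22.8 CPM at 300 ng/ml and 27.6 and 9.35 CPM at 1000 ng/ml in SOX2-negative cells. SOX2-positive cells held 1.64 and 1.81 CPM, 1.95 CPM, and 1.30 and 3.80 CPM at the same doses, against 10.8 and 16.4 CPM in control colonies. The low group was SOX2-positive cells, and SOX2-negative libraries spread to both sides of control, with 2.68 ± 0.42 log2 units between the gates (edgeR adjusted p = 0.00099). SEMA3D stood at 2.26 to 9.02 CPM in the 5 SOX2-negative libraries, against 0.992 to 1.90 CPM in the 5 SOX2-positive libraries and 2.79 and 2.31 CPM in control colonies, with 2.07 ± 0.39 log2 units between the gates (edgeR adjusted p = 0.003). SEMA3F, which prefers NRP2, was higher by 1.24 ± 0.18 log2 units (edgeR adjusted p = 0.00054), at 123 to 246 CPM in the 5 SOX2-negative libraries, against 61.3 to 73.5 CPM in the 5 SOX2-positive libraries and 71.1 and 67.5 CPM in control colonies. SEMA3B differed by 0.60 ± 0.18 log2 units (edgeR adjusted p = 0.031), a call that was lost without SOX2-negative replicate 2 at 100 or 1000 ng/ml, SOX2-positive replicate 1 at 100 or 1000 ng/ml, SOX2-positive replicate 2 at 100 or 1000 ng/ml or SOX2-negative replicate 1 at 1000 ng/ml (adjusted p = 0.056 to 0.13) and with no scaling beyond the library total (adjusted p = 0.051).

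SEMA3A (ENSG00000075213, chromosome 7, 83955777 to 84492724), the class 3 semaphorin that acts through NRP1, was the exception. It stood at 34.0 and 18.5 CPM at 100 ng/ml, 28.7 CPM at 300 ng/ml and 20.4 and 19.3 CPM at 1000 ng/ml in SOX2-negative cells. SOX2-positive cells held 55.1 and 45.6 CPM, 72.1 CPM, and 73.4 and 49.1 CPM at the same doses, against 81.6 and 75.7 CPM in control colonies. Every SOX2-negative library was below every SOX2-positive one, with a log2 fold change of -1.28 ± 0.21 (edgeR adjusted p = 0.0014). SEMA3C was measured at 1.26 and 1.2 CPM at 100 ng/ml, 1.66 CPM at 300 ng/ml and 2.55 and 24.8 CPM at 1000 ng/ml in SOX2-negative cells. SOX2-positive cells held 1.64 and 0.866 CPM, 2.23 CPM, and 1.06 and 3.57 CPM at the same doses, against 0.0508 and 0.769 CPM in control colonies. A single library, SOX2-negative replicate 2 at 1000 ng/ml, held the high value, and the gate difference of 1.26 ± 0.73 log2 units did not pass (edgeR adjusted p = 0.25).

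The membrane-anchored semaphorins of classes 4 to 7 divided into 5 higher in SOX2-negative cells (SEMA4A, SEMA4C, SEMA4G, SEMA5A and SEMA6D), 2 lower (SEMA4D and SEMA6A) and 6 that did not pass (SEMA4B, SEMA4F, SEMA5B, SEMA6B, SEMA6C and SEMA7A). SEMA6A (ENSG00000092421, chromosome 5, 116443616 to 116574934), a ligand of PLXNA2 and PLXNA4, stood at 644 and 363 CPM at 100 ng/ml, 525 CPM at 300 ng/ml and 365 and 439.7 CPM at 1000 ng/ml in SOX2-negative cells. SOX2-positive cells held 713 and 575 CPM, 1018 CPM, and 1154 and 667 CPM at the same doses, against 611 and 539 CPM in control colonies. The gates overlap, the difference was -0.77 ± 0.22 log2 units (edgeR adjusted p = 0.028), and the call was lost without SOX2-positive replicate 1 at 100 or 1000 ng/ml, SOX2-positive replicate 2 at 100 ng/ml or SOX2-negative replicate 1 at 1000 ng/ml (adjusted p = 0.051 to 0.11). SEMA6D (ENSG00000137872, chromosome 15, 47184101 to 47774223), a ligand of PLXNA1, stood at 76.1 and 40.3 CPM at 100 ng/ml, 74.4 CPM at 300 ng/ml and 63.2 and 66.3 CPM at 1000 ng/ml in SOX2-negative cells. SOX2-positive cells held 24.0 and 40.2 CPM, 9.70 CPM, and 9.14 and 19.4 CPM at the same doses, against 134 and 93.3 CPM in control colonies. SOX2-positive cells held the low values and control colonies the high ones, with 1.52 ± 0.29 log2 units between the gates (edgeR adjusted p = 0.0034). SEMA4D, the ligand of PLXNB1, stood at 59.7 and 70.2 CPM at 100 ng/ml, 61.5 CPM at 300 ng/ml and 57.8 and 61.8 CPM at 1000 ng/ml in SOX2-negative cells. SOX2-positive cells held 95.0 and 104 CPM, 91.9 CPM, and 79.2 and 101 CPM at the same doses, against 119.8 and 121 CPM in control colonies. Its log2 fold change of -0.60 ± 0.14 (edgeR adjusted p = 0.011) missed the threshold without SOX2-positive replicate 2 at 100 or 1000 ng/ml (adjusted p = 0.055 to 0.059). SEMA4G was higher by 1.32 ± 0.16 log2 units (edgeR adjusted p = 0.0002), at 53.1 to 64.4 CPM in the 5 SOX2-negative libraries, against 17.7 to 26.6 CPM in the 5 SOX2-positive libraries and 12.4 and 12.8 CPM in control colonies, and its exons overlap MRPL43. SEMA5A was higher by 1.17 ± 0.25 log2 units (edgeR adjusted p = 0.0065), but its gates overlap. It stood at 19.0 to 64.0 CPM in the 5 SOX2-negative libraries, against 16.0 to 23.7 CPM in the 5 SOX2-positive libraries. At 100 ng/ml alone SEMA5A, SEMA6A and SEMA6D missed the threshold, at 0.61, -0.36 and 0.86 log2 units (edgeR adjusted p = 0.25, 0.44 and 0.16). The smaller differences of SEMA4A (0.98 ± 0.24, edgeR adjusted p = 0.012) and SEMA4C (0.59 ± 0.16, edgeR adjusted p = 0.022) were less firm. SEMA4A missed the threshold without SOX2-positive replicate 1 at 100 ng/ml or SOX2-negative replicate 2 at 1000 ng/ml (adjusted p = 0.053 to 0.057), and SEMA4C missed it without SOX2-positive replicate 1 at 100 or 1000 ng/ml, SOX2-positive replicate 2 at 100 or 1000 ng/ml or SOX2-negative replicate 1 at 1000 ng/ml (adjusted p = 0.063 to 0.091).

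Among the semaphorin receptors, 4 of 9 plexins were higher in SOX2-negative cells (PLXNA2, PLXNA4, PLXNB2 and PLXND1), 0 were lower, and PLXNA1, PLXNA3, PLXNB1, PLXNB3 and PLXNC1 did not pass. Of the neuropilins, NRP1 was higher and NRP2 did not pass. PLXNA2 (ENSG00000076356, chromosome 1, 208022242 to 208244320), a receptor for SEMA6A and for neuropilin-bound class 3 semaphorins, stood at 207 and 145 CPM at 100 ng/ml, 272 CPM at 300 ng/ml and 296 and 188 CPM at 1000 ng/ml in SOX2-negative cells. SOX2-positive cells held 3.97 and 4.08 CPM, 5.99 CPM, and 8.08 and 9.55 CPM at the same doses, against 23.2 and 27.8 CPM in control colonies. The SOX2-negative, SOX2-positive and control libraries did not overlap, control colonies lay between the gates, and the gate difference was 5.11 ± 0.22 log2 units (edgeR adjusted p = 4.3e-07). PLXNA4 stood at 13.1 to 37.0 CPM in the 5 SOX2-negative libraries, against 2.06 to 3.92 CPM in the 5 SOX2-positive libraries and 2.18 and 3.18 CPM in control colonies, with a gate difference of 3.01 ± 0.30 log2 units (edgeR adjusted p = 4.2e-05). PLXND1 (ENSG00000004399, chromosome 3, 129555175 to 129606818), the receptor of SEMA3E, stood at 186 and 223 CPM at 100 ng/ml, 239 CPM at 300 ng/ml and 224 and 230.4 CPM at 1000 ng/ml in SOX2-negative cells. SOX2-positive cells held 77.1 and 78.0 CPM, 93.1 CPM, and 109 and 81.6 CPM at the same doses, against 47.5 and 46.3 CPM in control colonies. SOX2-negative cells were highest, SOX2-positive cells intermediate and control colonies lowest, with 1.33 ± 0.15 log2 units between the gates (edgeR adjusted p = 8.9e-05). PLXNB2, a receptor of SEMA4C, differed by 0.63 ± 0.15 log2 units (edgeR adjusted p = 0.011), and that call was lost without SOX2-positive replicate 1 at 100 or 1000 ng/ml (adjusted p = 0.059 to 0.062).

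NRP1 (ENSG00000099250, chromosome 10, 33177492 to 33336262), which serves SEMA3A and vascular endothelial growth factor, stood at 20.2 and 25.1 CPM at 100 ng/ml, 29.1 CPM at 300 ng/ml and 39.4 and 80.6 CPM at 1000 ng/ml in SOX2-negative cells. SOX2-positive cells held 1.19 and 1.69 CPM, 0.903 CPM, and 0.589 and 2.08 CPM at the same doses, against 0.508 and 0.549 CPM in control colonies. Only the SOX2-negative libraries exceeded 10 CPM, and the gate difference was 4.70 ± 0.37 log2 units (edgeR adjusted p = 1e-05). NRP2 (ENSG00000118257, chromosome 2, 205681990 to 205798133) was measured at 9.34 and 12.5 CPM at 100 ng/ml, 14 CPM at 300 ng/ml and 25.4 and 60.8 CPM at 1000 ng/ml in SOX2-negative cells. SOX2-positive cells held 26.1 and 45.6 CPM, 20.2 CPM, and 23.8 and 38.9 CPM at the same doses, against 41.8 and 64.7 CPM in control colonies. The SOX2-negative libraries ranged from the lowest to nearly the highest values of the series, and the gate difference of -0.62 ± 0.31 log2 units did not pass (edgeR adjusted p = 0.17). It passed without SOX2-negative replicate 2 at 1000 ng/ml (adjusted p = 0.039) and with the replicate block (adjusted p = 0.023). By dose, NRP2 was lower in SOX2-negative cells at 100 ng/ml (log2 fold change -1.71, edgeR adjusted p = 0.027) and had a value of 0.46 at 1000 ng/ml (edgeR adjusted p = 0.61). The 7 endothelial markers, whose lineage uses both neuropilins, summed to 48.1 to 303.5 CPM in SOX2-negative cells and 116 to 216 CPM in SOX2-positive cells, against 52.1 to 72.2 CPM in control colonies. KDR, a receptor of vascular endothelial growth factor, made up 271 CPM of the highest sum, in SOX2-negative replicate 2 at 1000 ng/ml, the library that also held the highest NRP1 value. Of the 7 markers, 4 were higher and 1, KDR, was lower in SOX2-negative than in SOX2-positive cells (edgeR). CDH5 stood at 2.69 to 3.54 CPM in SOX2-negative cells, against 0.050 to 0.707 CPM in SOX2-positive cells and 0.203 and 0 CPM in control colonies. PECAM1 stood at 4.89 to 5.98 CPM, against 0 to 0.543 CPM and 0.762 and 0 CPM, in those groups. KDR, ESAM and TIE1 were likewise above both controls in every SOX2-negative library, but TEK and ERG were below both. TEK stood at 4.19 to 17.1 CPM in SOX2-negative cells, against 57.6 and 36.8 CPM in control colonies. ERG stood at 0 to 0.851 CPM, against 2.79 and 1.501 CPM, in those groups. The part of these markers in the NRP1 and NRP2 values was not tested.

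**Figure D3:**
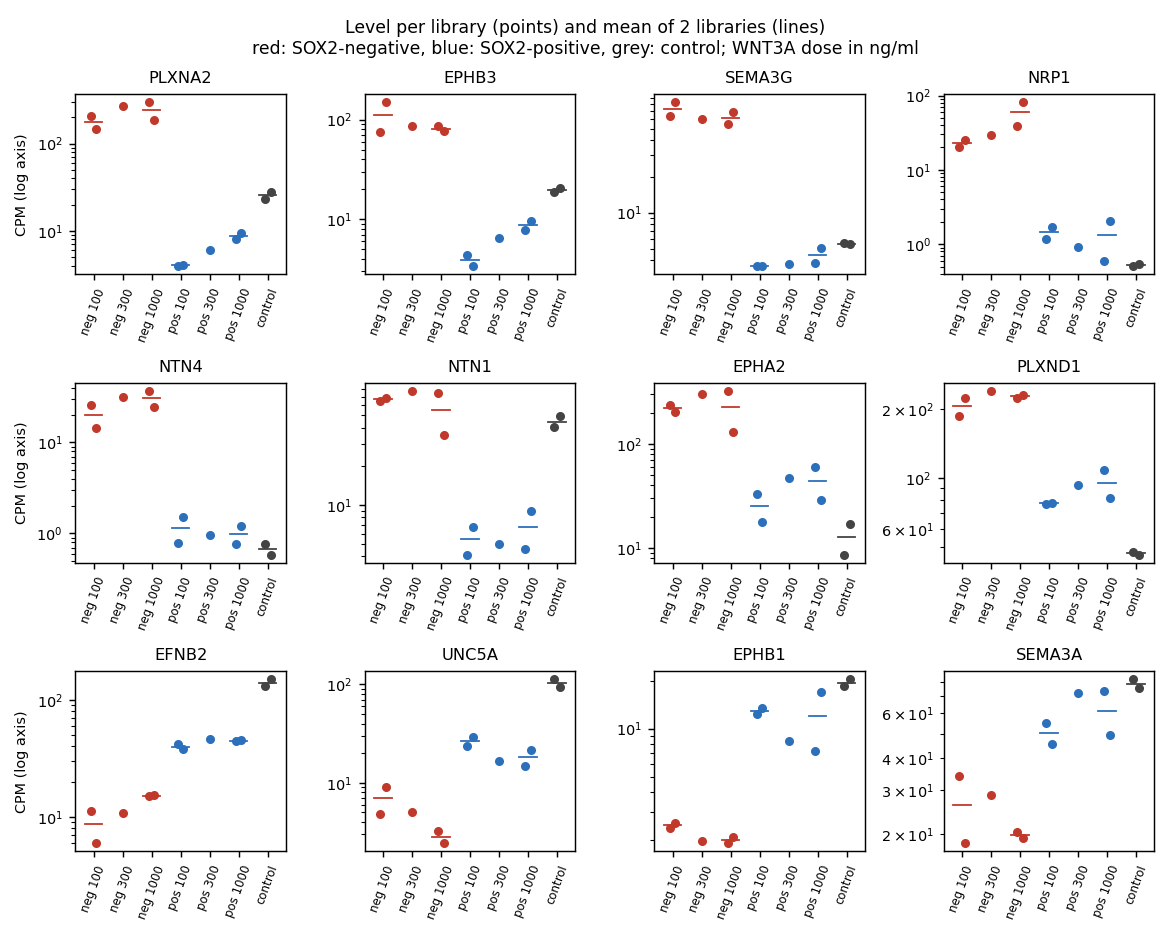
CPM (log axis, its own for each panel) of 12 members in every library, with SOX2-negative groups (neg, red), SOX2-positive groups (pos, blue) and control colonies (grey) from left to right and short lines at the mean of 2 libraries. PLXNA2 spans 145 to 296 CPM in SOX2-negative cells, against 3.97 to 9.55 CPM in SOX2-positive cells and 23.2 to 27.8 CPM in control colonies.

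Of the slits and their receptors, SLIT3 was higher in SOX2-negative cells, ROBO2 was lower, and SLIT1, SLIT2, ROBO1 and ROBO3 did not pass. SLIT2 (ENSG00000145147, chromosome 4, 20253260 to 20620561), the main repellent ligand of ROBO1 and ROBO2, stood at 22.9 and 10.1 CPM at 100 ng/ml, 29.9 CPM at 300 ng/ml and 35.4 and 21.3 CPM at 1000 ng/ml in SOX2-negative cells. SOX2-positive cells held 36.6 and 22.8 CPM, 57.5 CPM, and 64.3 and 28.1 CPM at the same doses, against 2.79 and 2.53 CPM in control colonies. Both gates were well above control and overlapped each other, and the gate difference of -0.78 ± 0.33 log2 units did not pass (edgeR adjusted p = 0.11). It passed without SOX2-negative replicate 1 at 100 ng/ml (adjusted p = 0.017) and with the replicate block (adjusted p = 0.015). SLIT3 stood at 7.30 to 15.2 CPM in the 5 SOX2-negative libraries, against 5.28 to 7.49 CPM in the 5 SOX2-positive libraries and 3.86 and 2.89 CPM in control colonies. The difference of 0.62 ± 0.19 log2 units between the gates (edgeR adjusted p = 0.037) was lost without SOX2-positive replicate 1 at 100 or 1000 ng/ml, SOX2-positive replicate 2 at 100 or 1000 ng/ml, SOX2-negative replicate 1 at 1000 ng/ml or SOX2-negative replicate 2 at 1000 ng/ml (adjusted p = 0.071 to 0.12). It was also lost with no scaling beyond the library total (0.068) and with no filter on low counts (0.095). At 100 ng/ml alone the difference was 0.0044 log2 units (adjusted p = 1.0), against 1.25 at 1000 ng/ml alone (0.014). ROBO1, the widely expressed slit receptor, was measured at 223 and 104 CPM at 100 ng/ml, 250.1 CPM at 300 ng/ml and 213 and 244 CPM at 1000 ng/ml in SOX2-negative cells. SOX2-positive cells held 114 and 165 CPM, 119 CPM, and 114 and 149.6 CPM at the same doses, against 175 and 204 CPM in control colonies. Its gates overlap, and the difference of 0.51 ± 0.23 log2 units did not pass (edgeR adjusted p = 0.14), although it did without SOX2-negative replicate 2 at 100 ng/ml (adjusted p = 0.0083). ROBO2 stood at 1.32 to 4.37 CPM in the 5 SOX2-negative libraries, against 4.61 to 8.16 CPM in the 5 SOX2-positive libraries and 4.27 and 7.61 CPM in control colonies. Its log2 fold change between the gates was -1.37 ± 0.32 (edgeR adjusted p = 0.01). By dose it was -2.09 at 100 ng/ml alone (edgeR adjusted p = 0.013) and -0.65 at 1000 ng/ml alone, which did not pass (edgeR adjusted p = 0.44). Without SOX2-positive replicate 2 at 100 ng/ml the value over both doses was -1.20 and missed the threshold.

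Of the 4 netrins, NTN1 and NTN4 were higher in SOX2-negative cells and NTN3 and NTN5 did not pass. Of the 4 UNC5 receptors, UNC5A, UNC5B and UNC5D were lower there and UNC5C was higher. NTN1 (ENSG00000065320, chromosome 17, 9021542 to 9244000), the secreted netrin best known from the spinal cord floor plate, stood at 64.7 and 68.5 CPM at 100 ng/ml, 77.3 CPM at 300 ng/ml and 74.1 and 35.2 CPM at 1000 ng/ml in SOX2-negative cells. SOX2-positive cells held 4.12 and 6.72 CPM, 4.99 CPM, and 4.54 and 9.05 CPM at the same doses, against 40.3 and 48.9 CPM in control colonies. SOX2-negative libraries overlapped control and SOX2-positive libraries lay below both, with 3.31 ± 0.30 log2 units between the gates (edgeR adjusted p = 2.7e-05). NTN4 (ENSG00000074527, chromosome 12, 95657807 to 95791152), a netrin of basement membranes that binds laminin, stood at 25.9 and 14.3 CPM at 100 ng/ml, 31.7 CPM at 300 ng/ml and 36.9 and 24.6 CPM at 1000 ng/ml in SOX2-negative cells. SOX2-positive cells held 0.793 and 1.53 CPM, 0.951 CPM, and 0.766 and 1.22 CPM at the same doses, against 0.762 and 0.586 CPM in control colonies. There SOX2-positive cells were near control and SOX2-negative cells far above, a difference of 4.51 ± 0.32 log2 units between the gates (edgeR adjusted p = 5.4e-06).

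UNC5A (ENSG00000113763, chromosome 5, 176810477 to 176880898), a netrin receptor that mediates repulsion, stood at 4.85 and 9.14 CPM at 100 ng/ml, 5.09 CPM at 300 ng/ml and 3.19 and 2.43 CPM at 1000 ng/ml in SOX2-negative cells. SOX2-positive cells held 23.6 and 29.1 CPM, 16.6 CPM, and 14.7 and 21.8 CPM at the same doses, against 112 and 94.0 CPM in control colonies. The groups did not overlap and descended from control colonies through SOX2-positive to SOX2-negative cells, with a log2 fold change of -2.30 ± 0.24 between the gates (edgeR adjusted p = 6.3e-05). UNC5B (ENSG00000107731, chromosome 10, 71212570 to 71302864), which also binds the FLRT proteins, stood at 35.4 and 31.7 CPM at 100 ng/ml, 36.6 CPM at 300 ng/ml and 40.2 and 45.7 CPM at 1000 ng/ml in SOX2-negative cells. SOX2-positive cells held 88.0 and 82.7 CPM, 90.3 CPM, and 94.0 and 90.3 CPM at the same doses, against 93.3 and 82.4 CPM in control colonies. SOX2-positive libraries overlapped control while SOX2-negative ones were lower, with a log2 fold change of -1.22 ± 0.14 (edgeR adjusted p = 9.3e-05). UNC5D stood at 15.3 to 30.0 CPM in the 5 SOX2-negative libraries, against 48.2 to 60.1 CPM in the 5 SOX2-positive libraries and 39.6 and 40.4 CPM in control colonies, with a log2 fold change of -1.16 ± 0.19 (edgeR adjusted p = 0.0013). UNC5C (ENSG00000182168, chromosome 4, 95162504 to 95549206) was the reverse at 2.27 and 1.79 CPM at 100 ng/ml, 5.52 CPM at 300 ng/ml and 9.15 and 30.0 CPM at 1000 ng/ml in SOX2-negative cells. SOX2-positive cells held 0.198 and 0 CPM, 0.428 CPM, and 0.531 and 0.905 CPM at the same doses, against 0.457 and 0.0366 CPM in control colonies. Its SOX2-negative libraries were all above the SOX2-positive ones, by 4.56 ± 0.71 log2 units (edgeR adjusted p = 0.00091), and differed among themselves more than those of any other UNC5 receptor. Of the attractive netrin receptors, both named here after their values were seen, DCC did not exceed 0.825 CPM in any library. Neogenin (NEO1) stood at 237 to 328 CPM in the 5 SOX2-negative libraries and 94.1 to 125 CPM in the 5 SOX2-positive libraries. Control colonies held 184 and 181 CPM of NEO1, and it was called higher in SOX2-negative than in SOX2-positive cells (edgeR).

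Levels of different members are comparable only per length, as CPM per kilobase of the longest annotated transcript. On that scale SEMA6A had the highest group level of all members in control colonies (83.6 CPM per kilobase) and in the SOX2-positive gate, where it stood at 93.7, 148 and 132 CPM per kilobase at 100, 300 and 1000 ng/ml. In SOX2-negative cells SEMA6A stood at 73.2, 76.3 and 58.5 CPM per kilobase and EPHA2 at 55.7, 76.9 and 57.5 CPM per kilobase at those doses, against 3.25 CPM per kilobase for EPHA2 in control colonies. EPHB4, SEMA4C and SEMA6B were among the next in control colonies, at 56.3, 49.6 and 54.6 CPM per kilobase. These are orders of group means over 1 or 2 libraries and were not tested.

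The second comparison sets each gate against control colonies, to place each gate relative to untreated cells. In SOX2-negative cells 17 members were higher and 12 lower than control at 100 ng/ml, and again 17 and 12 at 1000 ng/ml (edgeR). Across all genes tested, 11.9% were higher and 8.66% lower at 100 ng/ml, and 10.7% and 7.10% at 1000 ng/ml (20.6% and 17.8% in either direction). Called higher at both doses were 15 members (EPHA2, EPHA6, EPHB3, NRP1, NTN4, PLXNA2, PLXNA4, PLXND1, SEMA3B, SEMA3F, SEMA3G, SEMA4G, SLIT2, SLIT3 and UNC5C), and 9 were called lower at both (EFNA5, EFNB2, EPHA7, EPHB1, ROBO3, SEMA3A, SEMA4D, UNC5A and UNC5B). At 1 dose only, EFNA2 and SEMA4A (100 ng/ml) and SEMA3C and SEMA5A (1000 ng/ml) were higher, and NRP2, ROBO2 and UNC5D (100 ng/ml) and EPHA10, EPHA8 and SEMA5B (1000 ng/ml) were lower. Both doses are set against the same 2 control libraries.

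Relative to control, the largest increases in SOX2-negative cells were those of NRP1, with log2 fold changes of 5.40 ± 0.57 at 100 ng/ml and 6.81 ± 0.59 at 1000 ng/ml (edgeR adjusted p = 0.00012 and 3.9e-05), on a control level near the detection limit. NTN4 was higher by 4.90 ± 0.47 and 5.51 ± 0.48 log2 units at those doses (edgeR adjusted p = 7.4e-05 and 4e-05). EPHA2 was higher by 4.10 ± 0.55 and 4.14 ± 0.56 log2 units (edgeR adjusted p = 0.00058 and 0.00052). EPHA6 was higher by 4.30 and 5.11, SEMA3G by 3.74 and 3.49, and PLXNA4 by 3.35 and 2.76 log2 units. UNC5C was higher by 6.40 ± 1.02 log2 units at 1000 ng/ml and SEMA3C by 4.97 ± 1.19, with the higher value of each in replicate 2 of that dose. The secreted ligands SLIT2 and SLIT3 were higher by 2.63 and 1.15 log2 units at 100 ng/ml and by 3.41 and 2.10 at 1000 ng/ml.

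EFNB2 and UNC5A had the largest decreases from control in SOX2-negative cells at 100 ng/ml, and UNC5A the largest at 1000 ng/ml. EFNB2 changed by -4.03 ± 0.30 log2 units at 100 ng/ml and -3.20 ± 0.29 at 1000 ng/ml (edgeR adjusted p = 2.1e-05 and 4.5e-05). UNC5A changed by -3.87 ± 0.35 and -5.20 ± 0.38 log2 units (edgeR adjusted p = 5.4e-05 and 1.7e-05). EPHB1 had log2 fold changes of -2.96 and -3.27, and EPHA7, a receptor of the developing nervous system, had -2.24 and -2.12. EPHA8 and EPHA10 had log2 fold changes of -2.20 and -3.59 at 1000 ng/ml, and NRP2 and ROBO2 had -2.28 and -1.91 at 100 ng/ml. SEMA3A fell at both doses (log2 fold change -1.59 and -1.99), as did UNC5B (-1.39 and -1.03).

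These counts leaned on single libraries, and the share of all genes called moved in the same direction in each of those fits. At 100 ng/ml, 18 of the 29 calls were kept whichever library was left out, and the count was 18 without control replicate 2, where EFNA2, EFNA5, NRP2, ROBO2, SEMA3B, SEMA4A, SEMA4D, SLIT2, SLIT3, UNC5C and UNC5D missed the threshold (edgeR adjusted p = 0.051 to 0.24). Without control replicate 1, EFNA2, EFNA5, SEMA4A, SEMA4D, SLIT3 and UNC5D missed it (adjusted p = 0.051 to 0.14), and without SOX2-negative replicate 2 at 100 ng/ml, EFNA2, SEMA4A, UNC5C and UNC5D did (adjusted p = 0.054 to 0.1). Without SOX2-negative replicate 1 at 100 ng/ml, EFNA5 and UNC5C missed it (adjusted p = 0.054 to 0.059). At 1000 ng/ml, 21 of 29 calls were kept. Lost there were EPHA10, SEMA3B, SEMA3C, SEMA3F and SEMA5A without control replicate 1 (adjusted p = 0.096 to 0.17) and EFNA5, EPHA10, SEMA3B, SEMA3F, SEMA4D and SEMA5A without control replicate 2 (adjusted p = 0.05 to 0.29). SEMA3B, SEMA3F and SEMA5A were lost without SOX2-negative replicate 1 at 1000 ng/ml (adjusted p = 0.12 to 0.16), and EPHA10, EPHA8, SEMA3B, SEMA3C and SEMA5A without replicate 2 (adjusted p = 0.058 to 0.21). With the replicate block, UNC5C at 100 ng/ml (edgeR adjusted p = 0.055) and SEMA3B at 1000 ng/ml (0.051) missed the threshold.

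SOX2-positive cells differed from control in fewer members, and most of those were lower. At 100 ng/ml 2 members were higher (SLIT2 and SLIT3) and 11 lower, and at 1000 ng/ml 2 were higher (SLIT2 and PLXND1) and 10 lower (edgeR). Across all genes tested, 2.69% were higher and 1.53% lower at 100 ng/ml, and 3.63% and 1.97% at 1000 ng/ml. Called in either direction were 4.22% at 100 ng/ml and 5.60% at 1000 ng/ml. Called lower at both doses were EFNA5, EFNB2, EPHA7, EPHB2, NTN1, PLXNA2, SEMA3E, SEMA6D and UNC5A, joined by EPHB3 and ROBO3 at 100 ng/ml and by EPHA4 at 1000 ng/ml. The 8 neural markers summed lower than control in both gates, as EPHA7, EFNB2, EFNA5 and UNC5A were, but not every marker fell. LHX5 reached at most 51.3 CPM in any treated library, against 356 and 468 CPM in control colonies. OTX2 reached at most 101 CPM, against 355 and 346 CPM. RAX, PAX6 and ZIC1 were also below both controls. NES and HES5 overlapped control, and SOX1 did not exceed 0.0825 CPM in any library. The part of these markers in the guidance values was not tested.

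In SOX2-positive cells SLIT2 was higher than control by 3.48 ± 0.52 log2 units at 100 ng/ml and 4.12 ± 0.54 at 1000 ng/ml (edgeR adjusted p = 0.0057 and 0.0025). SLIT3 was higher by 1.15 ± 0.28 at 100 ng/ml (edgeR adjusted p = 0.046, and just past the threshold at 0.05 with the replicate block), and PLXND1 by 1.02 ± 0.21 at 1000 ng/ml (edgeR adjusted p = 0.018). NTN1 fell by 3.04 log2 units at 100 ng/ml and by 2.71 at 1000 ng/ml (edgeR adjusted p = 0.0042 and 0.0051). In SOX2-negative cells, NTN1 had values of 0.58 and 0.29 against the same controls, neither past the threshold. SEMA3E had log2 fold changes of -2.97 ± 0.60 and -2.39 ± 0.59 in SOX2-positive cells (edgeR adjusted p = 0.02 and 0.04, the second being 0.051 with the replicate block). SEMA6D had -1.82 ± 0.41 and -2.99 ± 0.43 (edgeR adjusted p = 0.034 and 0.0037). UNC5A had -1.97 and -2.50, EFNB2 -1.81 and -1.64, EPHA7 -2.01 and -1.64, and EPHA4 -2.03 at 1000 ng/ml.

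PLXNA2 and EPHB3 passed the test in opposite directions in the gates. PLXNA2 differed from control by 2.79 ± 0.28 and 3.25 ± 0.28 log2 units in SOX2-negative cells at 100 and 1000 ng/ml, and by -2.66 ± 0.29 and -1.53 ± 0.28 in the SOX2-positive gate (edgeR adjusted p = 9.2e-05, 4e-05, 0.0013 and 0.01). EPHB3 differed by 2.50 ± 0.32 in SOX2-negative and -2.36 ± 0.33 in SOX2-positive cells at 100 ng/ml (edgeR adjusted p = 0.0004 and 0.0041). At 1000 ng/ml the SOX2-positive value of -1.18 for EPHB3 did not pass (edgeR adjusted p = 0.055). For both genes the gates themselves differed past the threshold, as given above.

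**Figure D4:**
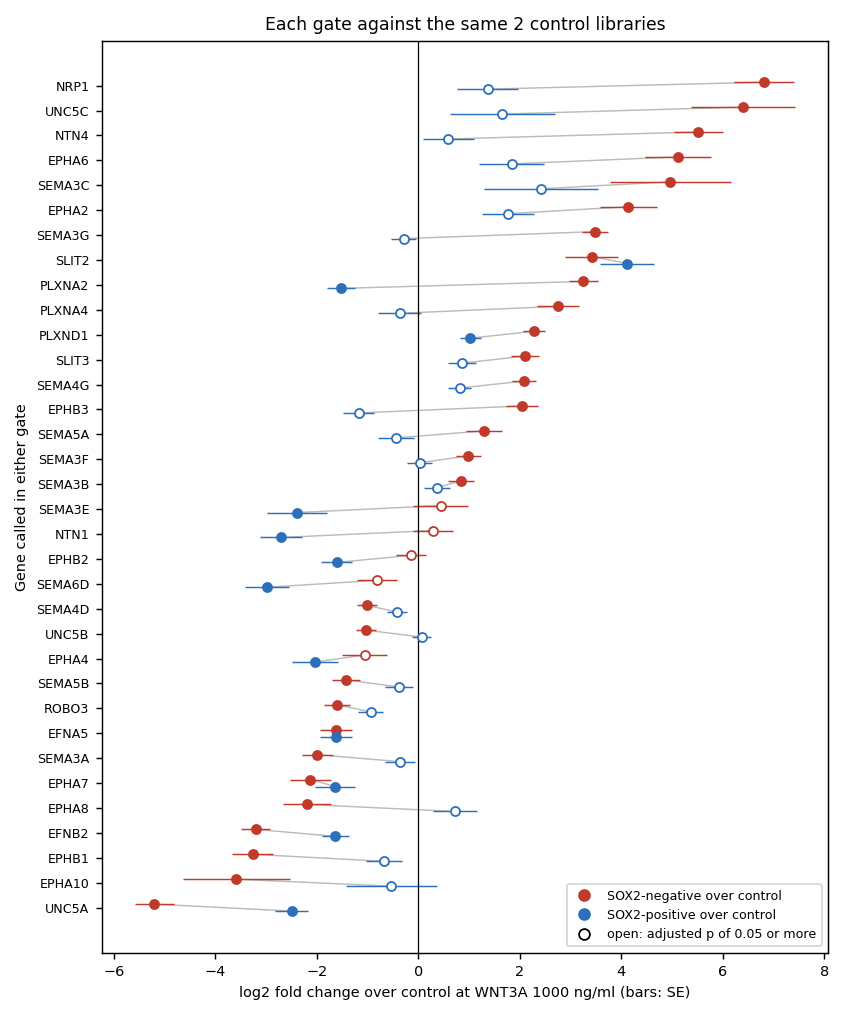
Log2 fold change against control colonies at 1000 ng/ml (horizontal axis) for the members called in either gate (rows), SOX2-negative in red and SOX2-positive in blue, with bars of 1 SE and open points where the adjusted p was 0.05 or more. Both gates use the same 2 control libraries, so the paired points share error; PLXNA2 has filled points on both sides of 0, and EFNB2, EPHA7 and UNC5A have both filled points below 0.

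The SOX2-positive calls were the least stable of the comparisons with control. At 100 ng/ml the 13 calls became fewer without either control replicate or either SOX2-positive replicate of that dose, and EPHB3 and PLXNA2 were kept throughout. At 1000 ng/ml the 12 calls became fewer without either control replicate or SOX2-positive replicate 1 of that dose, and SEMA6D, SLIT2 and UNC5A were kept throughout. The share of all genes called also fell in each of these fits, so the loss was not particular to the members. The other calls each missed the threshold without at least 1 library, with an edgeR adjusted p of up to 0.42 at 100 ng/ml and 0.25 at 1000 ng/ml. In NTN1, for example, the call at 100 ng/ml was lost without SOX2-positive replicate 1 at 100 ng/ml (adjusted p = 0.059) and that at 1000 ng/ml without control replicate 2 or SOX2-positive replicate 1 at 1000 ng/ml (adjusted p = 0.052) (edgeR).

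The third comparison asks whether members differed with the level of WNT3A within a gate. Between 1000 and 100 ng/ml no member passed the threshold in SOX2-negative cells (15 had an unadjusted p under 0.05, and DESeq2 called 7 while limma called 0) or in SOX2-positive cells (4 unadjusted, DESeq2 0, limma 0). No member had a dose effect that differed between the gates (8 unadjusted, DESeq2 0, limma 0). Across all genes edgeR also called 0% in each of these 3 comparisons. An unadjusted p under 0.05 was found for 18.2% of all genes in SOX2-negative cells, 1.72% in SOX2-positive cells and 7.91% for the difference between the gates. DESeq2 called 2.41%, 0.0293% and 0.0939% of all genes in these comparisons. The largest differences in SOX2-negative cells were those of SEMA3C (3.48 ± 1.09 log2 units), UNC5C (3.27 ± 0.83), NRP2 (1.98 ± 0.45) and EPHA8 (-1.93 ± 0.48), with edgeR adjusted p = 0.25, 0.23, 0.21 and 0.22. These genes were chosen for their size after their values were seen.

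Single libraries bore on these values. SOX2-negative replicate 2 at 1000 ng/ml was above replicate 1 of its dose by 9.73 times in SEMA3C, 3.28 times in UNC5C, 2.39 times in NRP2 and 2.05 times in NRP1. With single libraries left out, members were called for the dose difference in SOX2-negative cells only without SOX2-negative replicate 1 at 100 ng/ml. The same held for the difference between the gates in dose effect. That fit compares 1000 ng/ml with replicate 2 at 100 ng/ml alone, the library that stood apart on the second principal component. The same fit also called genes across the whole table, so these calls are not particular to the members.

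At 300 ng/ml each gate had 1 library, so its values have no replicate check. UNC5C was measured at 5.52 CPM in the SOX2-negative library of that dose, NRP1 at 29.1 CPM and NRP2 at 14 CPM, each between the lowest value at 100 ng/ml and the highest at 1000 ng/ml in that gate. UNC5A at 300 ng/ml stood at 5.09 CPM in SOX2-negative and 16.6 CPM in SOX2-positive cells, and SLIT2 at 29.9 and 57.5 CPM.

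**Figure D5:**
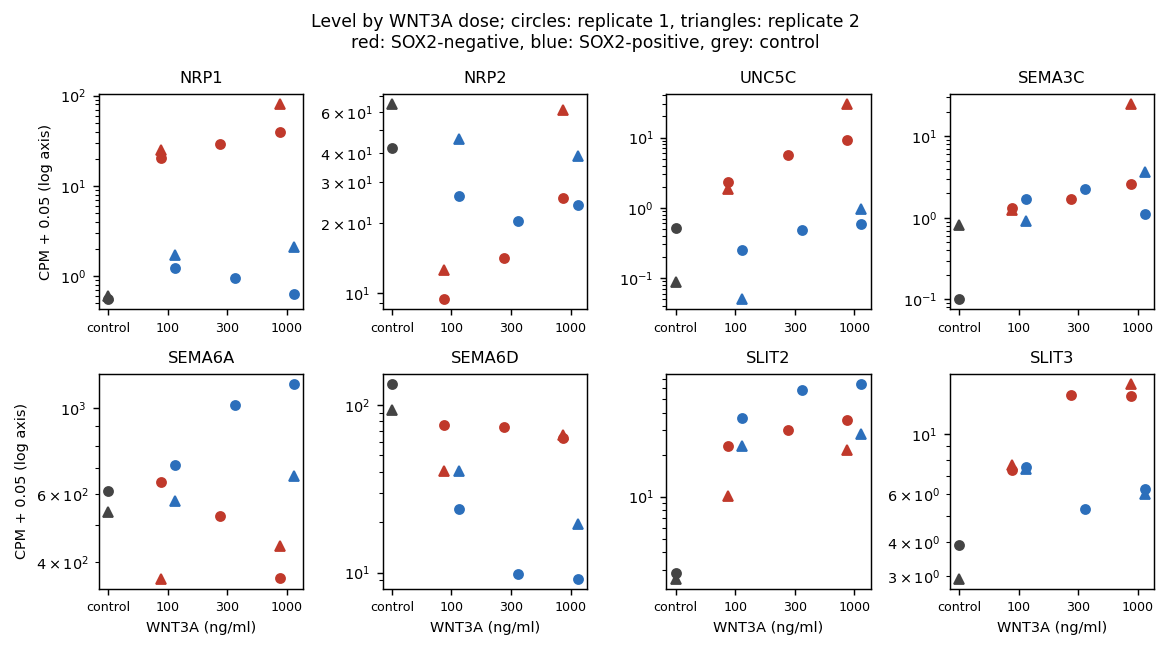
CPM + 0.05 (log axis, its own for each panel) of 8 members in control colonies (grey) and at 100, 300 and 1000 ng/ml WNT3A in SOX2-negative (red) and SOX2-positive (blue) cells; circles are replicate 1 and triangles replicate 2. UNC5C in SOX2-negative cells spreads from 1.79 to 30.0 CPM, with the 2 libraries at 1000 ng/ml apart from each other.

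Other genes of the same pathways were taken from lists of co-receptors, alternative ligands and intracellular effectors, 95 of which were tested. Between the gates, 21 were higher and 26 lower in SOX2-negative cells, with 5 higher and 5 lower of 15 ligands, 7 and 9 of 26 receptors, and 9 and 12 of 54 effectors (edgeR; 12.9% and 11.1% of all genes). CHL1, a cell adhesion molecule that partners with neuropilin, stood at 1.41 to 28.3 CPM in the 5 SOX2-negative libraries, against 0 to 0.543 CPM in the 5 SOX2-positive libraries and 0.102 and 0.110 CPM in control colonies (gate difference 5.04 ± 0.54 log2 units, edgeR adjusted p = 7.6e-05). FLRT3, a ligand of UNC5 receptors, stood at 82.2 to 125 CPM in the 5 SOX2-negative libraries, against 1.71 to 11.1 CPM in the 5 SOX2-positive libraries and 49.2 and 67.9 CPM in control colonies (4.05 ± 0.49 log2 units, edgeR adjusted p = 0.00018). SLITRK2 and RTN4RL1, a transmembrane protein with slit-like repeats and a Nogo receptor relative, were higher by 3.33 and 3.26 log2 units.

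On the lower side, MET, the hepatocyte growth factor receptor that can associate with plexin B1, stood at 1.07 to 2.13 CPM in the 5 SOX2-negative libraries, against 13.3 to 23.9 CPM in the 5 SOX2-positive libraries and 7.21 and 5.89 CPM in control colonies (-3.51 ± 0.29 log2 units, edgeR adjusted p = 1.4e-05). DPYSL5, a collapsin response mediator in the semaphorin pathway, stood at 2.31 to 8.56 CPM in the 5 SOX2-negative libraries, against 21.5 to 47.2 CPM in the 5 SOX2-positive libraries and 203 and 239.9 CPM in control colonies, with a log2 fold change of -2.89 ± 0.21 between the gates (edgeR adjusted p = 6.1e-06). CNTN2, an axonal adhesion molecule, and SLITRK3 had log2 fold changes of -5.22 and -3.56. Against control, 13 of the 95 were higher and 21 lower in SOX2-negative cells at 100 ng/ml and 17 and 21 at 1000 ng/ml, while in SOX2-positive cells 4 were higher and 8 lower at 100 ng/ml and 7 and 9 at 1000 ng/ml (edgeR). The shares of all genes were 11.9% and 8.66%, and 10.7% and 7.10%, in SOX2-negative cells at these doses. In SOX2-positive cells they were 2.69% and 1.53%, and 3.63% and 1.97%.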

How the data were processed

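The authors deposited estimated counts per gene for 12 bulk RNA libraries. The submitters' processing notes name Salmon and GRCh38; the Salmon version, its options, the strand setting and the annotation release are not given in the sources used here. Rows that share a symbol were summed (EPHB6 has 2 identifiers) and rounded to whole numbers, since the deposited values need not be whole. Genes were kept by filterByExpr (minimum count 10, minimum total 15), scaled by TMM and fitted with edgeR 4.0.16 (R 4.3.3) over 7 groups, leaving 5 residual degrees of freedom; the prior had 5.61. The quasi-likelihood test was adjusted by Benjamini-Hochberg over all 17047 genes, with a threshold of 0.05. A standard error is the log2 fold change divided by the square root of F. CPM divides counts by the TMM-adjusted total. The step was tested on simulated data. Alternatives used DESeq2 1.42.0, limma 3.58.1, other scaling, filtering, grouping and each library left out. Floors cover counting error only, while standard errors come from the quasi-likelihood fit and include the spread between libraries.

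The members, the other gene lists and the markers were chosen with earlier results of these data known. Values per library are given for up to 15 called members per direction between the gates, up to 6 per direction in each other comparison, and 19 members of a fixed list, called or not; all members are named in their family. The main model has no replicate block. As a check, same-numbered libraries were correlated across genes in their deviations from group means: over 10 pairs of groups the correlation ran from -0.06 to 0.22, with 5 over 0.1. Replicates differed by more than sampling noise (chi-square per degree of freedom 21.7 to 134), so none was counted as a repeat of another. Mitochondrial genes took 2.79 to 5.63% of counts.

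Coordinates and lengths come from GENCODE 29 on GRCh38, matched by identifier for 68 of 69 rows, and promoters from RefSeq's GRCh38.p14 table, matched by symbol for 58 of 68 members. Exons of 25 members overlap another annotated gene, so reads could be shared and their levels are uncertain; these include EPHA1 with ZYX, EPHB1 with KY, EFNB2 with AL138689.2, SEMA3F with SEMA3F-AS1, SEMA4G with MRPL43, SLIT1 with ARHGAP19-SLIT1 and UNC5A with HK3, and also EPHB2, EPHB4, NRP1, NRP2, SEMA6A, SLIT3 and UNC5C.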

Additional observations from a re-analysis of the deposited data

Results flagged for a closer look

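PLXNA2 was higher than control in SOX2-negative cells and lower in SOX2-positive cells at both 100 and 1000 ng/ml, and every library lay on its own side of the controls. The difference between the gates, fitted over both doses, was 5.11 log2 units (edgeR adjusted p = 4.3e-07). EPHB3 was higher than control in SOX2-negative cells and lower in SOX2-positive cells at 100 ng/ml, with a gate difference of 4.04 log2 units (edgeR adjusted p = 1.9e-06). No group holds enough libraries for a check of single outlying samples.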

How the results depend on the processing

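Between the gates the count of called members stayed at 27 to 45 over every alternative run, against 39 in the main model: 29 of the 39 calls were kept whichever library was left out (counts 32 to 45) and 20 under every alternative, where the fits on 100 or 1000 ng/ml alone (27 and 29 calls) have fewer libraries. In SOX2-negative cells against control the count was 18 to 39 at 100 ng/ml and 23 to 26 at 1000 ng/ml with single libraries left out, against 29 at each dose. In SOX2-positive cells at 100 ng/ml, 13 calls became 23 when the compared groups alone were fitted and 3 to 5 with single libraries left out; at 1000 ng/ml, 12 became 19 with DESeq2 and 3 to 11 with single libraries left out. For the dose difference in SOX2-negative cells, 0 calls became 8 with no filter on low counts, 7 with DESeq2 and 0 to 22 with single libraries left out. In SOX2-positive cells it became 4 with no filter and 0 to 0 with libraries left out, and the difference between the gates in dose effect became 4 with no filter and 0 to 12. Between the gates, the fits on 100 or 1000 ng/ml alone called 16.2% and 11.3% of all genes, against 24.0% in the main model. The other alternatives that kept every library of the gates called 21.5% to 28.0%. With no filter on low counts, 6.79% of all genes were called for the dose difference in SOX2-negative cells and 0.469% in SOX2-positive cells. For the difference between the gates in dose effect that share was 1.35%. In the dose comparisons, members were called with single libraries left out only without SOX2-negative replicate 1 at 100 ng/ml. That fit called genes across the whole table, so those calls are not particular to the members. Why the counts of called members moved was not tested, beyond the smaller number of libraries.

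At 1 dose alone, 9 of the 67 members tested, 0 of them called over both doses, had a gate difference of the opposite sign to that over both doses. At 100 ng/ml these were EPHB6 (0.06), NTN3 (0.36), SEMA3C (-0.02) and SEMA5B (0.12), and at 1000 ng/ml EFNA4 (-0.15), EFNA5 (-0.0024), SEMA6B (-0.27), EPHB4 and NRP2. EPHB4 had -0.12 log2 units at 1000 ng/ml alone against 0.19 in the main model, and ran from -0.027 to 0.34 with single libraries left out, and NRP2 had 0.46 at 1000 ng/ml alone, against -0.62; the cause was not tested. With the mean of all 3 doses EPHA4 (edgeR adjusted p = 0.031) and ROBO1 (0.042) also passed between the gates. Gate calls lost at 100 ng/ml alone were EPHA1, EPHA5, EPHA8, EPHA10, SEMA3A, SEMA3B, SEMA3D, SEMA4A, SEMA4D, SEMA5A, SEMA6A, SEMA6D and SLIT3. Those lost at 1000 ng/ml alone were EFNA1, EFNB1, EPHA5, EPHA10, PLXNB2, ROBO2, SEMA3B, SEMA4A, SEMA4C, SEMA4D and UNC5D.

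With the replicate number as a block, 41 members were called between the gates (27 higher, 14 lower), NRP2 (adjusted p = 0.023) and SLIT2 (0.015) being the gains. The block ended the calls of UNC5C in SOX2-negative cells at 100 ng/ml (0.055) and SEMA3B there at 1000 ng/ml (0.051), and of SLIT3 at 100 ng/ml (just past the threshold at 0.05) and SEMA3E at 1000 ng/ml (0.051) in SOX2-positive cells, all against control, and changed no other call. The labels do not say that a number marks shared cultures, and 5 of 10 pairs of groups exceeded 0.1, so the numbers were not taken to pair the libraries.

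With 2 libraries a group, 1 line and an ungated control, small differences and those of members under about 1 CPM are not resolved.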
